A study of Mus musculus with 8 samples.

Results

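Gpr83, Izumo1r, Cd83, Ecm1, Plagl1, Swap70 and Klrg1 are 7 genes of the regulatory T (Treg) cell transcript signature that belong to none of its larger families. They were chosen by gene symbol, with earlier results of these data known, so counts of changed genes among them are descriptions. All 7 were among the 55665 genes of the deposited tables and all 7 passed the filter on low counts, as did 16642 genes in all. Klrg1 passed with 4 to 24 counts per library, and its values are given as counts for that reason. Only sgNC libraries, including both at 3 h, brought Klrg1 over the filter, so it had to be higher there than elsewhere, and it is left out of the counts of changed genes below.

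RNA was sequenced in bulk, with a stranded protocol, from cultured mouse natural Treg (nTreg) cells. The cells were CD4 T cells sorted for a green fluorescent reporter of Foxp3 (Foxp3gfp) from spleen and lymph nodes, and every group carried Cas9 from the Rosa locus on a single allele (RosaCas9/+). The 4 groups, of 2 libraries each, were the guide against Foxp3 (sgFoxp3) with mock treatment in buffer (0 h), the control guide (sgNC) with the same mock treatment, sgFoxp3 restimulated with antibodies to CD3 and CD28 for 3 h, and sgNC restimulated in the same way. Strain background and age, the number of guides, and whether libraries came from separate animals or cultures are not given in the sources used here, so the p-values rest on the spread of these libraries alone, and that spread may be technical. Foxp3 transcript that remains after editing does not show how much protein remains. In edited bulk cultures, fewer cells that express a gene and less RNA per cell cannot be told apart.

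Treg cells are the CD4 T cells that restrain immune responses, and the transcription factor Foxp3 maintains much of their transcript signature. Part of that signature is also set by T cell receptor (TCR) and IL-2 signals. Gpr83 is a G protein-coupled receptor best known in the brain and in Treg cells. Izumo1r encodes folate receptor 4, also called Juno, which marks Treg and anergic CD4 T cells and is the egg receptor for the sperm protein Izumo1. Cd83 and Klrg1 encode surface proteins of the immunoglobulin and C-type lectin families, Ecm1 a secreted matrix protein, Plagl1 an imprinted zinc finger transcription factor, and Swap70 a signalling protein that binds phosphoinositides and Rac.

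Library totals ran between 38729009 and 94807362 expected counts. Foxp3 itself stood at 87.6 and 88.5 CPM in sgFoxp3 cells at 0 h, against 764 and 776 CPM in sgNC cells. The 3 h levels of Foxp3 were 76.1 and 71.8 CPM in sgFoxp3 cells, against 679 and 673 CPM in sgNC cells. T cell markers were high in all groups, with summed levels of 2340 to 2350 CPM (sgFoxp3) and 1910 to 1950 CPM (sgNC) at 0 h, and 1620 to 1680 CPM (sgFoxp3) and 1340 to 1360 CPM (sgNC) at 3 h. The share of counts from ribosomal protein genes was 6.45 to 7.38% in sgFoxp3 libraries and 5.34 to 5.76% in sgNC libraries, and their part in the results was not tested. Gene levels are compared between libraries in TMM-scaled CPM and between genes in TPM, which accounts for transcript length. Between the CPM and the log2(TPM + 1) scale, the median change of all genes shifted from 0.023 to -0.152 for the guide effect at 0 h and from -0.009 to -0.118 at 3 h.

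The 7 genes divided by what the Foxp3 guide did to them. Ecm1 kept its expression, while Gpr83, Cd83 and Plagl1 lost most of theirs at 0 h and regained part of it at 3 h relative to sgNC cells. Izumo1r lost more than it kept at both times. Swap70 was lower by a modest amount at 0 h and by more at 3 h, when its level in sgNC cells was higher than at 0 h and that in sgFoxp3 cells was nearly the same. Klrg1 was near the limit of detection, with more counts in sgNC cells at 3 h than in the other groups.

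**Figure D1:**
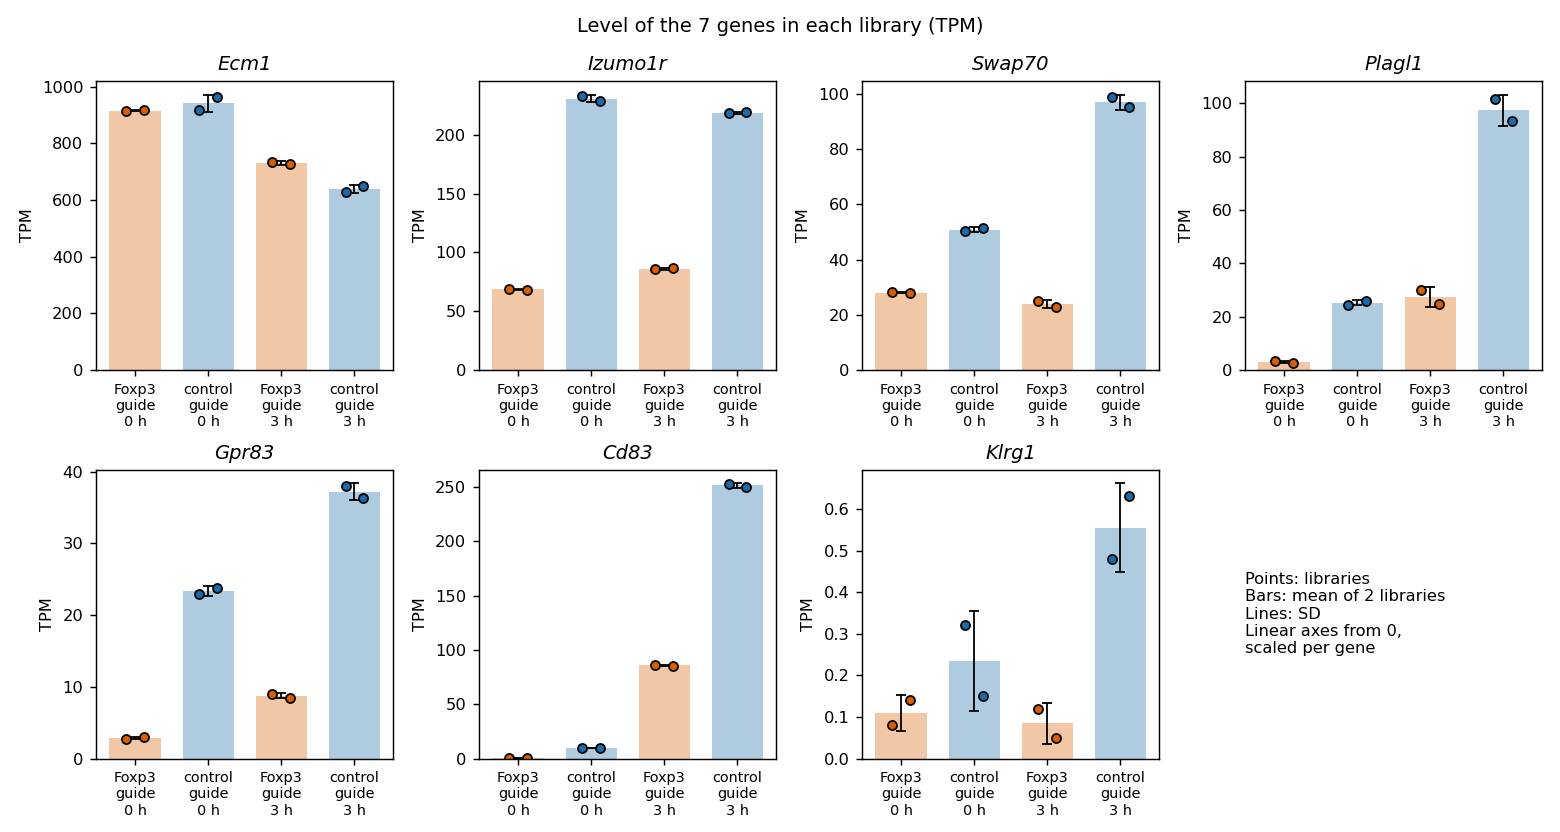
Level of each gene in TPM (vertical axis, linear from 0, scaled per gene) in the 4 groups. Points are libraries, bars are means of 2 libraries and lines are SD. The lowest library of Ecm1 stood at 629 TPM, whereas Gpr83, Cd83 and Plagl1 in sgFoxp3 cells at 0 h stayed below 3.3 TPM.

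At 0 h, 5 of the 6 genes other than Klrg1 fell with the Foxp3 guide and 1 rose (edgeR's quasi-likelihood test, Benjamini-Hochberg adjusted p below 0.05). Over all genes tested, 63.3% passed: 29.1% fell and 34.2% rose. Of the 6 genes, 4 fell at least 2-fold, against 6.33% of all genes, and 0 rose that far, against 9.21%. Since the genes were chosen with earlier results of these data known, these counts are no independent evidence. On the log2(TPM + 1) scale, higher calls were 27.9% of all calls at 0 h and 27.4% at 3 h, against 54% and 49.9% on the CPM scale. At 3 h, 5 of the 6 fell and 1 rose, against 30.8% and 30.7% of all genes (61.5% in either direction). Those 5 fell at least 2-fold, against 8.88% of all genes, and 0 rose that far, against 7.71%. The median log2 change of the 6 was -2.11 at 0 h and -1.48 at 3 h, with medians over all genes of 0.023 and -0.009.

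**Figure D2:**
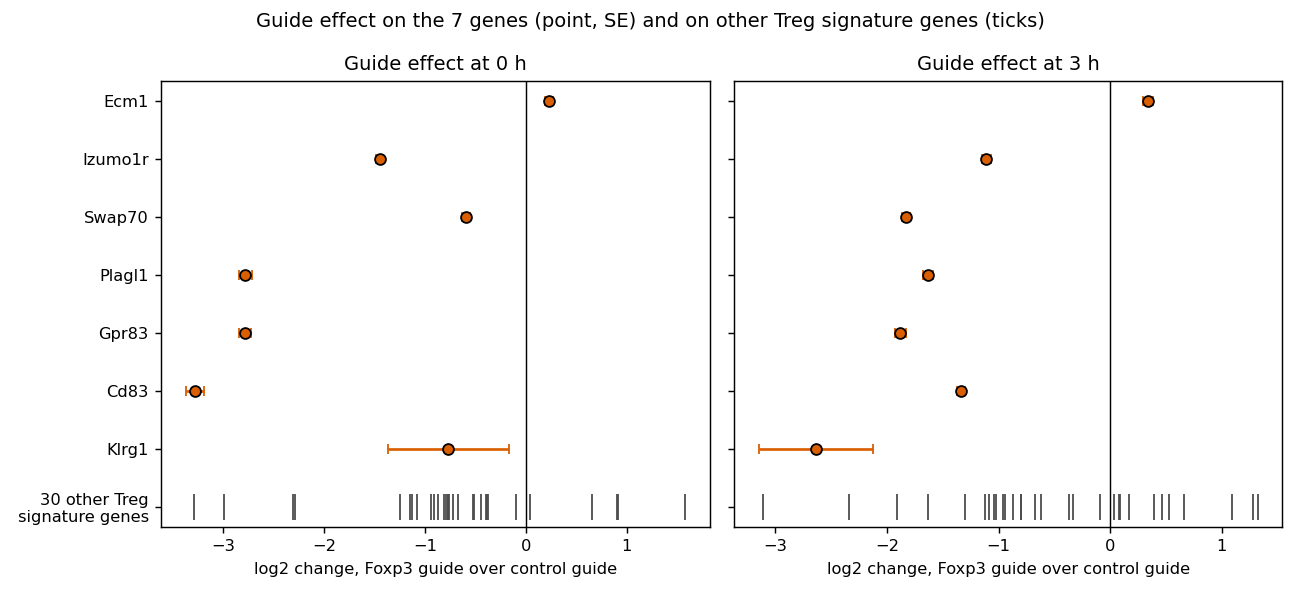
Log2 change between sgFoxp3 and sgNC cells (horizontal axis) at 0 h and 3 h. Points with SE are the 7 genes and ticks are 30 other Treg signature genes. At 3 h Ecm1 is the single gene of the 7 to the right of 0, and Swap70 lies further left than at 0 h, at -1.83 against -0.59.

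In sgNC cells at 0 h the order of the levels ran from Ecm1 at 941 TPM through Izumo1r at 230.7, Swap70 at 50.8, Plagl1 at 25.3, Gpr83 at 23.4 and Cd83 at 9.92 TPM to Klrg1 at 0.235 TPM. No neighbours in that order overlapped between libraries. In sgFoxp3 cells at 0 h the libraries of Plagl1 (mean 2.93 TPM) and Gpr83 (mean 2.85 TPM) overlapped. At 3 h Cd83 moved up to second place in both guides. Its libraries overlapped those of Izumo1r in sgFoxp3 cells, with means of 86.1 TPM each, and in both guides the libraries of Plagl1 and Swap70 overlapped.

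Gpr83 and Izumo1r lie next to each other on chromosome 9 (GRCm38). Gpr83 (ENSMUSG00000031932.14) spans 14860210 to 14870789 on the plus strand, and Izumo1r (ENSMUSG00000031933.17) spans 14885814 to 14903949 on the minus strand. They point towards each other, their 3' ends are 15.0 kb apart, and no annotated gene starts between them. Their promoters, from 250 bases before to 50 bases after the RefSeq start (GRCm38.p6), are shown because both genes fell with the guide from a shared locus. Gpr83 is at chr9:14859960-14860259 (plus strand) and Izumo1r at chr9:14903718-14904017 (minus strand). Each is printed 5′ to 3′, and capitals mark matches on either strand to the letters searched: TGTTTAC (forkhead), TGANTCA (AP-1), GGAAA (NFAT), TTCNNNGAA (STAT) and TGTGGT (Runx). No matches of different motifs overlapped in the sequences shown.
Gpr83: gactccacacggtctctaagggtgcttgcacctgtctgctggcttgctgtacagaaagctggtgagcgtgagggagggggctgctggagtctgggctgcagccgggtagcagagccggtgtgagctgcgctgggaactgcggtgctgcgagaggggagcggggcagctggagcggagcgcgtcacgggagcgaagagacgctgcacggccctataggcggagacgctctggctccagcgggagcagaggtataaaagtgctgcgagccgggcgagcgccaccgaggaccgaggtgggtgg
Izumo1r: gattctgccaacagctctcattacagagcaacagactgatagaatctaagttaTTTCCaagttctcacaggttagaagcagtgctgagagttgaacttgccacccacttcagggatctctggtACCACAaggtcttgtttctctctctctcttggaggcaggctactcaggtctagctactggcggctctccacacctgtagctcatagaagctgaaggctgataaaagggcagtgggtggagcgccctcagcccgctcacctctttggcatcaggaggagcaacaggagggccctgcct

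The Gpr83 window held none of the 5 motifs and was 67% G and C. The Izumo1r window was 52.3% G and C. It held 1 GGAAA match, reading TTTCC 197 bases before the start, and 1 TGTGGT match, reading ACCACA 127 bases before it. Of 32851 mouse promoter windows of the same length, 61.3% held GGAAA and 16.8% held TGTGGT. TTCNNNGAA stood in 8.3%.

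Gpr83 stood at 2.74 and 2.95 TPM in sgFoxp3 cells at 0 h, against 22.9 and 23.9 TPM in sgNC cells. After 3 h of stimulation Gpr83 stood at 9.08 and 8.52 TPM in sgFoxp3 cells, against 38.0 and 36.4 TPM in sgNC cells. The groups did not overlap at either time, and stimulated sgFoxp3 cells stayed below unstimulated sgNC cells. On the CPM scale sgFoxp3 cells held 14.5% of the sgNC level at 0 h and 27.3% at 3 h. The log2 change was -2.78 (SE 0.059, edgeR adjusted p = 4.2e-22) at 0 h and -1.88 (SE 0.049, edgeR adjusted p = 3.1e-20) at 3 h.

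Izumo1r was the more abundant of the pair. It stood at 68.9 and 68.2 TPM in sgFoxp3 cells at 0 h, against 233 and 228 TPM in sgNC cells, and at 85.5 and 86.6 TPM in sgFoxp3 cells at 3 h, against 218 and 219 TPM in sgNC cells. The groups were far apart at both times. The share held on the CPM scale was 36.7% at 0 h and 46.2% at 3 h, with log2 changes of -1.45 (SE 0.039, edgeR adjusted p = 4.9e-20) and -1.11 (SE 0.038, edgeR adjusted p = 6.5e-18).

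Other tested genes nearby did not fall at 0 h. Within 300 kb of the midpoint of the pair, 9 genes were tested, and Gpr83 and Izumo1r were the 2 that fell at least 2-fold at 0 h. On the lower side, Ankrd49 (an ankyrin repeat gene) changed by -0.05 (SE 0.058, edgeR adjusted p = 0.5). Mre11a, which encodes a DNA double-strand break repair nuclease, rose by 0.25 (SE 0.046). Further out, the fucosyltransferase gene Fut4 rose by 1.14 (SE 0.113), the piRNA pathway gene Piwil4 by 2.26 (SE 0.361) and the angiomotin-family gene Amotl1 by 1.98 (SE 0.096) at 0 h. On the higher side the nearest tested gene was Panx1, a membrane channel gene, which rose by 0.24 (SE 0.043) at 0 h and fell by 0.50 (SE 0.043) at 3 h. In the later libraries Amotl1, Piwil4 and Fut4 were again higher, by 1.08, 1.56 and 0.83, and Mre11a (0.04) and Ankrd49 (-0.10) did not pass.

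**Figure D3:**
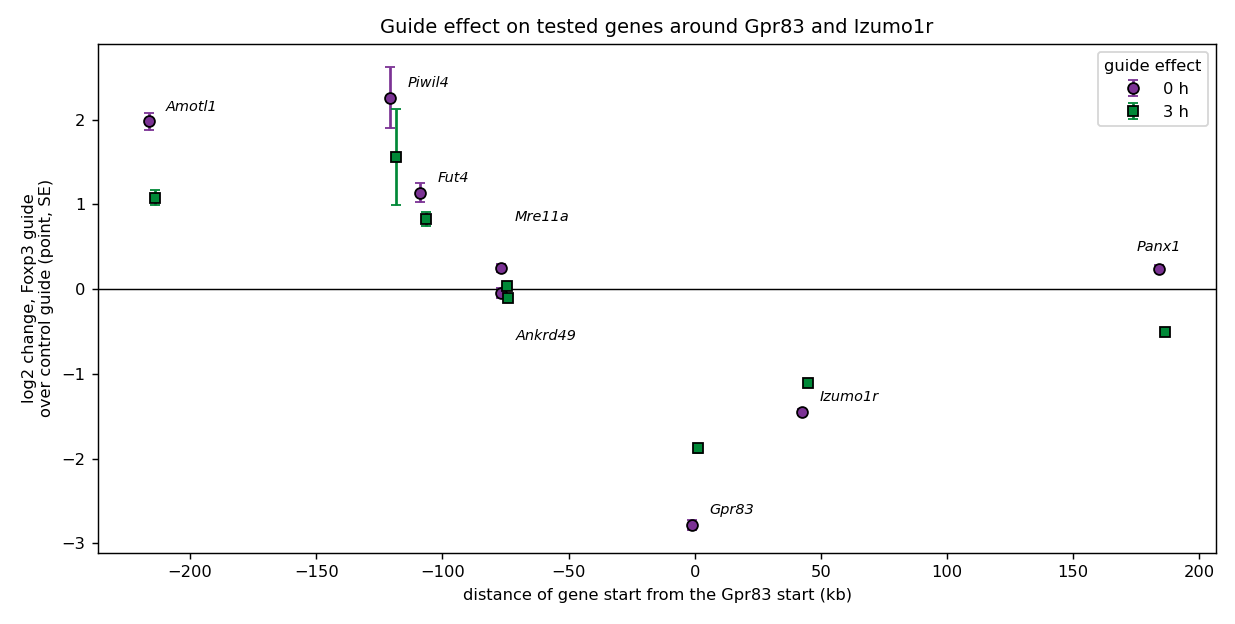
Log2 change between sgFoxp3 and sgNC cells (vertical axis, with SE) of tested genes, by distance of their start from the Gpr83 start in kb. Gpr83 and Izumo1r lie below 0 at both times, Amotl1, Piwil4 and Fut4 lie above it at both times, and Panx1 lies above it at 0 h and below it at 3 h. The numbered gene 1700012B09Rik, which did not pass at either time, is left out.

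Cd83 (ENSMUSG00000015396.4, chromosome 13, 43784775 to 43803132, plus strand) encodes a surface immunoglobulin-family protein that, on antigen-presenting cells, protects MHC class II and CD86 from the ubiquitin ligase MARCH1. It stood at 0.78 and 0.88 TPM in sgFoxp3 cells at 0 h, against 9.84 and 9.99 TPM in sgNC cells. Stimulated for 3 h, Cd83 reached 86.5 and 85.7 TPM in sgFoxp3 cells, against 253 and 250 TPM in sgNC cells. Stimulated cells of either guide were above all unstimulated ones, and the guides did not overlap at either time.

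The share of the sgNC level of Cd83 held on the CPM scale was 10.3% at 0 h, the lowest of the 7 genes, and 39.5% at 3 h. The log2 change was -3.28 (SE 0.087, edgeR adjusted p = 3.2e-20) at 0 h and -1.34 (SE 0.036, edgeR adjusted p = 7.4e-20) at 3 h. Mcur1, the nearest tested gene on one side and a mitochondrial calcium uptake regulator, changed by -0.32 (SE 0.049) at 0 h and did not pass at 3 h, at -0.02 (SE 0.046, edgeR adjusted p = 0.77). On the other side the noncoding gene Gm33195 stood at 0.18 (SE 0.47, edgeR adjusted p = 0.76) at 0 h.

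Plagl1 (ENSMUSG00000019817.18, chromosome 10, 13060504 to 13131694, plus strand) stood at 3.20 and 2.65 TPM in sgFoxp3 cells at 0 h, against 24.5 and 25.99 TPM in sgNC cells. Plagl1 at 3 h stood at 29.9 and 24.6 TPM in sgFoxp3 cells, against 101 and 93.3 TPM in sgNC cells. The guides did not overlap at either time, and stimulated sgFoxp3 cells overlapped unstimulated sgNC cells in TPM. In CPM they stood above them, at 62.7 and 59.4 CPM in stimulated sgFoxp3 cells, against 36.9 and 35.4 CPM in unstimulated sgNC cells. The annotation lists 25 transcripts of Plagl1, which the gene-level counts do not separate, and the imprinted start was therefore not resolved from the others.

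On the CPM scale sgFoxp3 cells held 14.5% of the sgNC level of Plagl1 at 0 h and 32.4% at 3 h. The log2 change was -2.78 (SE 0.062, edgeR adjusted p = 1.2e-21) at 0 h and -1.63 (SE 0.044, edgeR adjusted p = 6.7e-20) at 3 h. The nearest tested genes were Sf3b5, a splicing factor subunit, and Ltv1, a ribosome assembly factor. They changed by 0.56 (SE 0.056) and -0.22 (SE 0.062) at 0 h, both past the threshold.

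Swap70 (ENSMUSG00000031015.8, chromosome 7, 110221711 to 110283506, plus strand) and Ecm1 (ENSMUSG00000028108.15, chromosome 3, 95734147 to 95739569, minus strand) had the mildest guide effects at 0 h among the 6 genes called. Their promoters are shown because Swap70 hardly changed with stimulation in sgFoxp3 cells and Ecm1 was the most abundant of the 7 genes in all groups. Swap70 is at chr7:110221453-110221752 (plus strand) and Ecm1 at chr3:95739520-95739819 (minus strand), with the same build, window and capitals as above.
Swap70: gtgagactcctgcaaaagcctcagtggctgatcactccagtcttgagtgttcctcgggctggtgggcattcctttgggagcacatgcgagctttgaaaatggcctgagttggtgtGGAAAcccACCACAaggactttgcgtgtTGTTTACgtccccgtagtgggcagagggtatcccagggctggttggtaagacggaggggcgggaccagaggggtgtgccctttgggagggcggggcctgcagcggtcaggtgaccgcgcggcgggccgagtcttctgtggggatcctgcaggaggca
Ecm1: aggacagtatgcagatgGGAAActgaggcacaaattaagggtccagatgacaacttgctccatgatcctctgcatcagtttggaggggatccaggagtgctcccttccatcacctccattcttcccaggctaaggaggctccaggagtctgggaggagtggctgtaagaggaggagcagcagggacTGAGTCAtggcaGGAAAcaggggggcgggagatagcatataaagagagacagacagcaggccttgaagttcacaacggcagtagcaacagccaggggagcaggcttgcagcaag

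The Swap70 window held 1 TGTTTAC match, 107 bases before the start, as 3.65% of all windows did. It also held 1 GGAAA match and 1 ACCACA match. The Ecm1 window held 1 AP-1 match, TGAGTCA, 64 bases before the start, as 7.81% of all windows did. It held 2 GGAAA matches. The Plagl1 window, at chr10:13090582-13090881 (plus strand), lies inside the span given above for the gene and not at its first base. It held none of the 5 motifs. These matches describe the letters in each window and not occupancy, which was not measured here.

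Swap70 stood at 28.1 and 27.8 TPM in sgFoxp3 cells at 0 h, against 50.2 and 51.4 TPM in sgNC cells. Swap70 at 3 h stood at 24.8 and 22.8 TPM in sgFoxp3 cells, against 98.9 and 95.1 TPM in sgNC cells. The guides did not overlap at either time, and all sgFoxp3 libraries were below all sgNC ones. The share held on the CPM scale was 66.2% at 0 h and 28.2% at 3 h. The log2 change was -0.59 (SE 0.038, edgeR adjusted p = 9.2e-13) at 0 h and -1.83 (SE 0.037, edgeR adjusted p = 3.9e-22) at 3 h.

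Ecm1, which in helper T cells of mice is known for controlling egress from lymph nodes through IL-2 receptor signalling, stood at 915 and 916 TPM in sgFoxp3 cells at 0 h, against 919 and 963 TPM in sgNC cells. Ecm1 at 3 h stood at 735 and 726 TPM in sgFoxp3 cells, against 629 and 648 TPM in sgNC cells. In TPM the sgFoxp3 libraries lay just below the sgNC ones at 0 h and above them at 3 h. On the CPM scale Ecm1 rose at both times, to 118% and 126% of the sgNC level, with log2 changes of 0.23 (SE 0.043, edgeR adjusted p = 4.9e-05) and 0.34 (SE 0.044, edgeR adjusted p = 3.2e-07). The direction at 0 h depends on scaling: on the log2(TPM + 1) scale the change was -0.04, which is 0.11 above the median of all genes on that scale. The neighbours Adamtsl4, an extracellular matrix gene, and Tars2, a mitochondrial tRNA synthetase gene, changed by -0.04 (SE 0.066, edgeR adjusted p = 0.6) and -0.18 (SE 0.039, edgeR adjusted p = 0.00035) at 0 h.

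Klrg1 (ENSMUSG00000030114.8, chromosome 6, 122270596 to 122282882, minus strand) encodes an inhibitory lectin receptor for cadherins that marks terminally differentiated effector and Treg cells. It had 5 and 8 counts in sgFoxp3 cells at 0 h, against 10 and 5 counts in sgNC cells, and the groups overlapped. Klrg1 at 3 h had 6 and 4 counts in sgFoxp3 cells, against 19 and 24 counts in sgNC cells, and the groups did not overlap. Since Klrg1 entered the test through the sgNC libraries, its change at 3 h is a description rather than evidence of a loss. The log2 change was -0.77 (SE 0.6, edgeR adjusted p = 0.27) at 0 h and -2.64 (SE 0.51, edgeR adjusted p = 8.6e-05) at 3 h.

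The ratio of sgFoxp3 to sgNC cells for Klrg1 was 0.58 at 0 h, with a 95% counting interval of 0.254 to 1.31, so a loss or a small gain at 0 h was not detectable at this depth. The ratio at 3 h was 0.155, with an interval of 0.0694 to 0.313. These intervals cover counting error only. Without sgFoxp3 3 h replicate 2 the log2 change at 3 h was -1.95, and without sgFoxp3 3 h replicate 1 it was -3.28. The nearest tested gene on the lower side was the GABA transporter gene Slc6a13, with starts 982.7 kb apart. It rose by 2.04 (SE 0.83, edgeR adjusted p = 0.038) at 3 h and did not pass at 0 h, at 1.03 (SE 0.54). On the higher side the pseudogene Gm6637, with starts 12.8 kb apart, changed by -2.40 (SE 0.5, edgeR adjusted p = 0.00019) at 3 h. It did not pass at 0 h, at -0.15 (SE 1). The counts of Slc6a13 and Gm6637 were not examined here. Whether either passed the filter through a single group was not tested, so their changes are descriptions.

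The TCR comparison asked how the 7 genes responded to stimulation in each guide. In sgFoxp3 cells 5 of the 6 genes other than Klrg1 rose between 0 h and 3 h and 0 fell, against 40.8% and 44.5% of all genes (85.4% in either direction). At least 2-fold rises were 3, against 22.6% of all genes, and such falls 0, against 28.4%. In sgNC cells 5 rose and 1 fell, against 40.9% and 40.9% of all genes (81.8% in either direction). Here 4 rose at least 2-fold, against 21.8% of all genes, and 0 fell that far, against 24.2%. The difference between the guides in the TCR effect passed for 5 of these 6 genes, against 44.8% of all genes. The log2 change with stimulation was larger in sgFoxp3 cells for 4 and smaller for 1, against 17.8% and 27% of all genes. The difference was at least 2-fold and positive for 2 genes, against 3.33% of all genes, and negative for 1, against 6.02%.

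**Figure D4:**
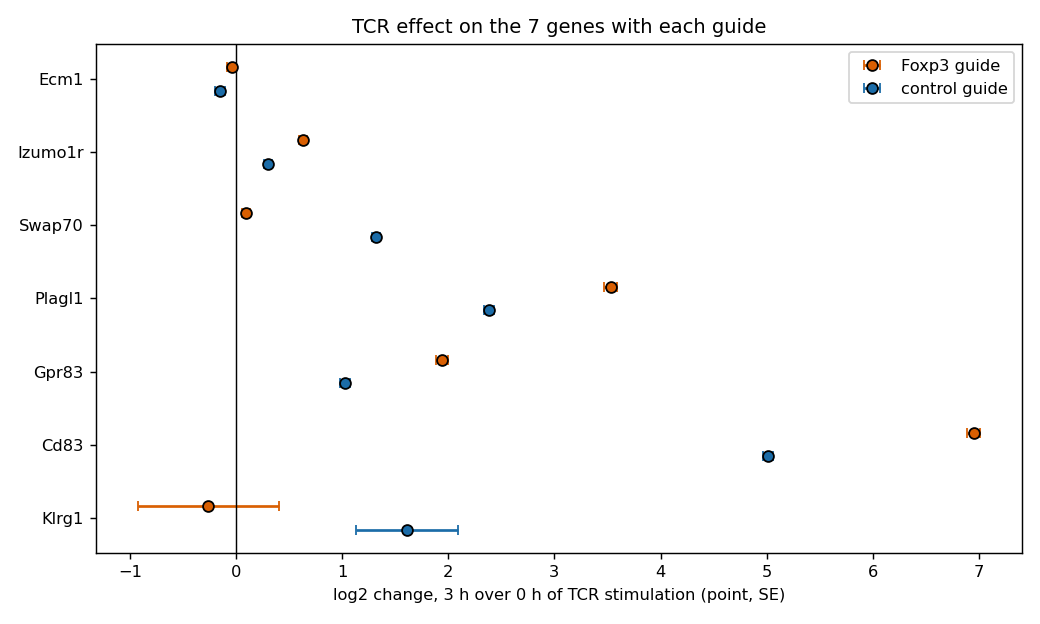
Log2 change between 3 h and 0 h of TCR stimulation (horizontal axis, with SE) in sgFoxp3 cells and sgNC cells. Cd83, Plagl1, Gpr83 and Izumo1r lie further right in sgFoxp3 cells, and Swap70 lies further right in sgNC cells, at 1.32 against 0.09 in sgFoxp3 cells.

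Cd83 was the most inducible of the 7. It stood 124-fold higher at 3 h than at 0 h in sgFoxp3 cells and 32.3-fold higher in sgNC cells. The log2 changes were 6.95 (SE 0.063) in sgFoxp3 cells and 5.01 (SE 0.048) in sgNC cells, and they differed by 1.94 (SE 0.1, edgeR adjusted p = 8.8e-14). The larger fold in sgFoxp3 cells started from a lower level, 1.19 ± 0.123 CPM against 11.6 ± 0.234 CPM in sgNC cells (SD, n = 2 each), and ended at 147.9 ± 2.19 CPM, against 373.9 ± 3.94 CPM in sgNC cells (SD, n = 2 each).

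Plagl1 rose 11.6-fold in sgFoxp3 cells and 5.21-fold in sgNC cells, with log2 changes that differed by 1.15 (SE 0.078, edgeR adjusted p = 1.1e-11). Gpr83 rose 3.85-fold in sgFoxp3 cells and 2.05-fold in sgNC cells, a difference of 0.91 (SE 0.077, edgeR adjusted p = 7.3e-10). Izumo1r rose 1.55-fold in sgFoxp3 cells and 1.23-fold in sgNC cells, and the log2 changes differed by 0.33 (SE 0.055, edgeR adjusted p = 2.1e-05). In sgNC cells the direction for Izumo1r depends on scaling, with a log2 change of 0.30 in CPM and -0.08 with log2(TPM + 1), for which all genes had a median of -0.197. All 4 genes reached a lower level in stimulated sgFoxp3 cells than in stimulated sgNC cells.

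Swap70 went the other way. It rose by 1.32 on the log2 scale (SE 0.037, edgeR adjusted p = 9.5e-21), or 2.50-fold, in sgNC cells. In sgFoxp3 cells it changed by 0.09 (SE 0.038, edgeR adjusted p = 0.028). The difference was -1.23 (SE 0.053, edgeR adjusted p = 2.6e-15). The small change in sgFoxp3 cells became -0.08 with upper-quartile scaling, and in TPM it became -0.22. Without a filter on low counts (0.06) or with at least 1 CPM in all libraries (0.01) its call was lost. It was also lost on leaving out sgFoxp3 0 h replicate 1 or 2, sgFoxp3 3 h replicate 1, or sgNC 0 h replicate 1 or 2, with values of 0.10, 0.06, 0.07, 0.08 and 0.08.

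Wee1, a mitotic inhibitor kinase gene that is the nearest tested neighbour of Swap70 on the lower side, with starts 99.7 kb apart, had a similar split. It changed by 0.06 (SE 0.049, edgeR adjusted p = 0.26) with stimulation in sgFoxp3 cells and rose by 2.04 (SE 0.058) in sgNC cells, a difference of -1.98 (SE 0.076, edgeR adjusted p = 4.7e-16). At 0 h, however, Wee1 was higher in sgFoxp3 cells, by 1.45 (SE 0.058). Sbf2, a phosphatase-like gene and the neighbour on the other side, changed by -0.03 (SE 0.079, edgeR adjusted p = 0.72) in sgFoxp3 cells and rose by 0.68 (SE 0.077) in sgNC cells.

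How Ecm1 responded to stimulation depends on the scale. In CPM the log2 change was -0.04 (SE 0.043, edgeR adjusted p = 0.35) in sgFoxp3 cells and -0.15 (SE 0.044, edgeR adjusted p = 0.0036) in sgNC cells. In sgFoxp3 cells the fall passed with upper-quartile scaling (-0.22), in TPM (-0.33) and with at least 1 CPM in all libraries (-0.13), and RLE scaling gave 0.01. In sgNC cells upper-quartile scaling gave -0.38 and TPM gave -0.56, both past the threshold. The call in sgNC cells was lost without sgNC 3 h replicate 1, at -0.11 (edgeR adjusted p = 0.053). The difference between the guides was 0.10 (SE 0.061, edgeR adjusted p = 0.18) and passed under RLE scaling, upper-quartile scaling, DESeq2 and in TPM, at 0.17 to 0.23.

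Klrg1 changed by -0.26 (SE 0.66, edgeR adjusted p = 0.71) with stimulation in sgFoxp3 cells and by 1.61 (SE 0.48, edgeR adjusted p = 0.0035) in sgNC cells, the libraries through which it entered the test. The difference of -1.87 (SE 0.83) missed the threshold (edgeR adjusted p = 0.07). The call in sgNC cells was lost without sgNC 0 h replicate 2, at 1.13 (edgeR adjusted p = 0.081), and under DESeq2, at 1.60 (adjusted p = 0.053). Without sgNC 0 h replicate 1 it was 2.24. Leaving out sgNC 0 h replicate 1 or sgFoxp3 3 h replicate 1 brought the difference past the threshold, at -2.51 in both cases, and without sgFoxp3 3 h replicate 2 it was -1.15.

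Among 10081 or 10082 candidate genes per member whose log2 CPM averaged 1 or more, likeness was measured as the root mean square difference of centred log2 CPM over the 8 libraries. These values are descriptions, since all genes share the libraries and their depth. Each is to be read against the member's own spread around its mean, in the same measure. That spread was 0.686 for Izumo1r, 0.766 for Swap70, 1.86 for Plagl1, 1.4 for Gpr83, 3.23 for Cd83 and 0.94 for Klrg1. Ecm1 was most like Aph1a, a gamma-secretase subunit gene, with a difference of 0.04 against 0.157 for Ecm1 around its own mean, then Cib1 (0.0504) and Capza1 (0.051). Izumo1r was most like Dennd4a, at 0.0964, then Sox12 (0.123) and Gorasp1 (0.131). Swap70 was most like Tbc1d30, at 0.144, followed by the interferon-inducible GTPase gene Irgm2 (0.164) and Tapbpl (0.181), a relative of the MHC class I loading factor tapasin.

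Plagl1 was most like the Wnt ligand gene Wnt10b, at 0.166, then Zbtb46 (0.281) and the IL-2 receptor alpha chain gene Il2ra (0.354). Wnt10b changed by -2.61 with the guide at 0 h and by -1.42 at 3 h, and Plagl1 by -2.78 and -1.63. Gpr83 was most like the guanylate-binding protein gene Gbp5, at 0.248, then the metallothionein gene Mt2 (0.274) and Scin (0.276). The nearest to Cd83 were Myc, at 0.53, the decoy IL-1 receptor gene Il1r2 (0.541) and Lad1 (0.553). Their guide effects at 3 h were -0.14, -0.35 and -0.24, against -1.34 for Cd83. For Klrg1 the nearest gene was Swap70, at 0.378, then Slfn8 (0.433) and Irgm2 (0.444). Klrg1 rests on few counts, to which a prior count of 2 was added, and it passed the filter only through sgNC libraries. Its likeness to genes that are high in those libraries was therefore partly built in.

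The 30 other Treg signature genes were also lower with the guide more often than higher. This list and the later ones were also chosen with earlier results of these data known, so their counts are descriptions. At 0 h 23 fell, 4 rose and 3 did not pass, with a median of -0.76, where 29.1% of all genes fell and 34.2% rose. At 3 h 18 fell, 8 rose and 4 did not pass, with a median of -0.64, where 30.8% of all genes fell and 30.7% rose. With stimulation 16 rose and 12 fell in sgFoxp3 cells (median 0.20), where 40.8% of all genes rose and 44.5% fell. In sgNC cells 16 rose and 13 fell (median 0.62), where 40.9% rose and 40.9% fell. The TCR effect differed upwards for 13 and downwards for 11 (median 0.12), against 17.8% and 27% of all genes. Among the 3 with the largest guide effects, the integrin subunit gene Itgb8, whose product activates latent TGF-beta, stood at -3.29 (SE 0.075) at 0 h and -0.96 (SE 0.041) at 3 h. The costimulatory receptor gene Tnfrsf9 followed the same course, at -2.99 (SE 0.05) and -0.94 (SE 0.042). Itgae, which encodes integrin CD103, instead stood at -2.31 (SE 0.041) at 0 h and -3.11 (SE 0.044) at 3 h.

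Close relatives of the 7 genes are background for reading them. The other folate receptor genes, Folr1 and Folr2, had 1 count each in all 8 libraries together. Def6, the paralog of Swap70 that also engages Rac and restrains IRF4, rose by 0.31 (SE 0.039) at 0 h and fell by 0.30 (SE 0.044) at 3 h. Plagl2, a relative of Plagl1, fell at both times (-0.59, SE 0.044, and -0.43, SE 0.042). Plag1 fell by 0.99 (SE 0.14) at 0 h and did not pass at 3 h, at -0.16 (SE 0.17). Of 10 relatives 7 were tested: 4 rose and 2 fell at 0 h, and 2 rose and 2 fell at 3 h, with medians of 0.31 and -0.16. Over all genes 63.3% passed at 0 h and 61.5% at 3 h. Among killer lectin genes, Klrd1 rose by 3.10 (SE 0.23) at 0 h, on 935 counts in sgFoxp3 cells against 73 in sgNC cells, and by 2.68 (SE 0.42) at 3 h, on 145 counts in sgFoxp3 cells against 15 in sgNC cells. Klrk1 had 72 counts in sgFoxp3 cells against 12 in sgNC cells at 0 h (means of 0.516 and 0.127 CPM). At 3 h it had 40 counts in sgFoxp3 cells against 1 in sgNC cells (means of 0.301 and 0.0111 CPM). Klrb1c had 147 counts in sgFoxp3 cells against 3 in sgNC cells at 0 h, or 32.8 times the sgNC level (95% counting interval 11 to 161). Only sgFoxp3 libraries brought Klrk1 over the filter on low counts, and only those at 0 h brought Klrb1c over it. Both had to be higher there than elsewhere, so these values are descriptions. The counts and medians of the relatives include both genes, among those that rose at 0 h and, for Klrk1, at 3 h.

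Beside each list stand its median log2 changes at 0 h and 3 h, to be read against 0.023 and -0.009 over all genes. The counts of each list are to be read against 29.1% of all genes lower and 34.2% higher at 0 h, and 30.8% lower and 30.7% higher at 3 h, a share near which is no result about a list. Partners of the encoded proteins were then counted by list. For Cd83, the list of MHC class II and MARCH genes also held Cd86, Cd80, Cd74 and Ciita, and 8 of the 9 genes present were tested. March1, the gene of the ligase named above, was not tested. It had 1 count in sgFoxp3 cells at 0 h and 0 in the other groups. At 0 h 4 fell and 2 rose, and at 3 h 6 fell and none rose, with medians of -0.35 and -1.02. Cd86, the costimulatory ligand that Cd83 protects on antigen-presenting cells, fell to a like degree at 0 h (-2.17, SE 0.06) and 3 h (-2.02, SE 0.061). A link of this fall to Cd83 was not tested. The class II gene H2-Aa changed by -2.20 (SE 0.44) at 0 h, on 14 counts in sgFoxp3 cells against 44 in sgNC cells. At 3 h it changed by -2.22 (SE 0.39), on 20 counts in sgFoxp3 cells against 62 in sgNC cells. Only sgNC libraries brought H2-Aa over the filter on low counts, so it had to be higher there than elsewhere. Its changes are descriptions, and the counts of lower genes and the medians of this list include it at both times. Ciita, the class II transactivator gene, fell by 3.58 (SE 0.46) at 3 h on 6 counts in sgFoxp3 cells against 50 in sgNC cells. Other class II genes did not all fall. H2-Ab1 rose by 0.87 (SE 0.12) at 0 h, on 644 counts in sgFoxp3 cells against 235 in sgNC cells. It did not pass at 3 h, at -0.13 (SE 0.12). H2-Eb1 did not pass at 0 h, at 0.22 (SE 0.16), and fell by 0.85 (SE 0.16) at 3 h.

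For Ecm1, all 7 genes of the IL-2 receptor and egress list were tested, and 5 fell and 2 rose at 0 h while 6 fell at 3 h (medians -0.37 and -0.41). Klf2, which maintains egress receptor expression, stood at -0.37 (SE 0.043) at 0 h and -2.90 (SE 0.083) after stimulation. Its target S1pr1, the egress receptor gene, rose by 0.11 (SE 0.04) at 0 h and fell by 2.17 (SE 0.055) at 3 h. Il2rb fell at both times (-1.08, SE 0.04, and -0.29, SE 0.039).

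For Plagl1, 8 of 11 genes of the imprinted network it belongs to were tested, with 4 lower and 2 higher at each time (medians -0.88 and -0.82). Igf2, a growth factor gene, fell by 2.85 (SE 0.22) at 0 h on 35 counts in sgFoxp3 cells against 170 in sgNC cells and rose by 1.67 (SE 0.13) at 3 h on 867 counts in sgFoxp3 cells against 181 in sgNC cells. Grb10, an adaptor gene, rose at both times (1.76, SE 0.26, and 1.63, SE 0.29). Peg3 changed by -2.36 (SE 0.86) at 3 h, on 3 counts in sgFoxp3 cells against 11 in sgNC cells. It did not pass at 0 h, at 0.37 (SE 0.35). For Swap70, the Rac and PIP3 list of 9 had 4 higher and 4 lower at 0 h, and 3 higher and 6 lower at 3 h (medians 0.02 and -0.20). Inpp5d, which encodes the lipid phosphatase SHIP and is on the Klrg1 list too, fell at both times (-0.26, SE 0.038, and -0.91, SE 0.04). Rac1 rose by 0.34 (SE 0.037) and 0.12 (SE 0.038), and Rac2 rose by 0.34 (SE 0.04) at 0 h and fell by 0.32 (SE 0.041) at 3 h.

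For Izumo1r, 9 genes of folate uptake and use were tested. At 0 h 2 rose and 4 fell, and at 3 h 5 rose and 2 fell (medians -0.04 and 0.12). The proton-coupled folate transporter gene Slc46a1 fell at both times (-1.87, SE 0.16, and -0.66, SE 0.17). Izumo1, which encodes the sperm partner of this receptor and is no folate gene, was listed with them but is not counted. It had 117 counts in sgFoxp3 cells and 1 in sgNC cells at 0 h, a ratio of 78.3 (95% counting interval 13.8 to 3120). Only sgFoxp3 libraries at 0 h brought Izumo1 over the filter on low counts, so this ratio is a description. For Klrg1, 5 of 6 cadherin ligand and phosphatase genes were tested, with 3 higher and 1 lower at 0 h and 3 higher and 2 lower at 3 h (medians 0.13 and 0.10). Cdh1, the E-cadherin gene, rose by 1.06 (SE 0.12) and 1.40 (SE 0.23). Cdh2 had 19 counts in sgFoxp3 cells against 2 in sgNC cells at 3 h, or 6.33 times the sgNC level (95% counting interval 1.53 to 56). At 0 h it had 37 counts in sgFoxp3 cells against 24 in sgNC cells, a ratio of 1.03 (0.601 to 1.8). For Gpr83, 4 signalling genes were tested, of which 1 rose and 2 fell at 0 h and 3 fell at 3 h (medians -0.23 and -0.27). Gnaq, a G protein subunit gene, fell at both times (-1.37, SE 0.051, and -0.16, SE 0.047). The arrestin gene Arrb1 also fell (-0.48, SE 0.042, and -1.09, SE 0.06), and Arrb2 rose by 0.57 (SE 0.041) at 0 h and fell by 0.38 (SE 0.046) at 3 h.

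Several of the 7 genes are also expressed by other leukocytes, so markers of those cells were measured. The 7 B cell markers summed to 254 to 257 CPM in sgFoxp3 cells and 931 to 933 CPM in sgNC cells at 0 h, and to 32.8 to 33.7 CPM in sgFoxp3 cells and 95.6 to 97.8 CPM in sgNC cells at 3 h. Nearly all of this was Ighm, at 250 CPM in sgFoxp3 cells and 926 CPM in sgNC cells at 0 h. Ms4a1 and Pax5, which define B cells, had 0 to 5 counts per group. Other markers of the list were detected: Cd79b rose by 0.65 (SE 0.15) at 0 h, on 550 counts in sgFoxp3 cells against 235 in sgNC cells, and Ebf1 changed by -1.86 (SE 0.17), on 85 counts in sgFoxp3 cells against 207 in sgNC cells. The 10 myeloid and dendritic cell markers summed to 3.1 to 3.3 CPM in sgFoxp3 cells and 8.6 to 9.34 CPM in sgNC cells at 0 h, and to 18.5 to 19.6 CPM in sgFoxp3 cells and 54.7 to 59.9 CPM in sgNC cells at 3 h. Zbtb46, itself among the genes most like Plagl1, stood at 1.46 CPM in sgFoxp3 cells and 7.03 CPM in sgNC cells at 0 h, and at 12.2 CPM in sgFoxp3 cells and 55.7 CPM in sgNC cells at 3 h, while Lyz2 and Csf1r had 0 to 8 counts per group and Siglech was at 0 in all groups. At 3 h the integrin genes Itgax and Itgam moved the other way, by 3.39 (SE 0.26) on 389 counts in sgFoxp3 cells against 25 in sgNC cells, and by 2.26 (SE 0.17) on 472 counts in sgFoxp3 cells against 65 in sgNC cells. The 6 natural killer cell markers summed to 3.68 to 3.91 CPM in sgFoxp3 cells and 2.12 to 2.41 CPM in sgNC cells at 0 h, and to 3.81 to 4.53 CPM in sgFoxp3 cells and 9.43 to 9.44 CPM in sgNC cells at 3 h, most of it Eomes, with Ncr1 at 0 or 1 count and Klra8 at 0 in all groups. The 2 CD8 markers summed to 7.7 to 7.8 CPM in sgFoxp3 cells and 7.08 to 7.69 CPM in sgNC cells at 0 h, and to 8.1 to 8.71 CPM in sgFoxp3 cells and 6.23 to 6.42 CPM in sgNC cells at 3 h. The 5 stromal markers summed to 130 to 131 CPM in sgFoxp3 cells and 202 to 212 CPM in sgNC cells at 0 h, and to 40.3 to 42.1 CPM in sgFoxp3 cells and 30.2 to 30.7 CPM in sgNC cells at 3 h, nearly all Pecam1. The part of any of these cells in the changes of the 7 genes was not tested.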

How the data were processed

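The submitters' processing notes name Trim Galore 0.6.3, STAR 2.7.9a, RSEM 1.3.1 and the mm10 (GRCm38) genome for these stranded RNA-seq libraries. The authors deposited a table of expected counts, rounded here to integers, and a table of TPM, both by gene. The annotation release is not given in the sources used here. Coordinates came from GENCODE M21, whose chromosome annotation held 55094 of 55665 gene identifiers with their version.

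Counts were filtered with filterByExpr, TMM-scaled and fitted with edgeR 4.0.16 (limma 3.58.1, R 4.3.3) over all 8 libraries with 1 mean per group and no replicate block, on 4 residual degrees of freedom. Benjamini-Hochberg adjustment covered 16642 genes, and SE is the log2 change divided by the root of F. The chi-square per gene between libraries of a group was 4.54 to 7.47, so none was counted as a duplicate. The pipeline was tested on simulated data. DESeq2 1.42.0 and limma-trend on log2(TPM + 1), which understates changes of low genes, were alternatives.

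Named genes were all 7 members, their nearest tested neighbours and, within 300 kb of Gpr83 and Izumo1r, the other tested genes, the 3 genes most alike, and the 3 largest changes past the threshold of each list. Members, lists, motifs and that window were chosen with earlier results of these data known. RefSeq promoters (GRCm38.p6) matched 5 of the 7 genes. Cd83 and Klrg1 are named only. A few genes that the rule would name are not reported here.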

Additional observations from a re-analysis of the deposited data

Results flagged for a closer look

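The effect of TCR stimulation differed between sgFoxp3 and sgNC cells for 5 of the 7 genes, by the interaction term of the edgeR fit with Benjamini-Hochberg adjustment, where 44.8% of all genes passed. The difference in log2 change was 1.94 for Cd83 (edgeR adjusted p = 8.8e-14), 1.15 for Plagl1 (edgeR adjusted p = 1.1e-11), 0.91 for Gpr83 (edgeR adjusted p = 7.3e-10) and 0.33 for Izumo1r (edgeR adjusted p = 2.1e-05). For Swap70 it was -1.23 (edgeR adjusted p = 2.6e-15). These are differences in fold. Cd83, Plagl1, Gpr83 and Izumo1r stood lower in sgFoxp3 cells than in sgNC cells at both 0 h and 3 h. All 5 differences passed in each of the alternatives tried, with ranges of 1.04 to 2.04, 0.94 to 1.26, 0.7 to 0.99, 0.3 to 0.41 and -1.26 to -1.14. Groups of 2 libraries allow no test for an outlying library.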

How the results depend on the processing

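Of 615 member values under alternatives, 576 kept their direction and their side of the threshold. Counts of members called, Klrg1 included, stayed within 5 to 6 (guide, 0 h), 6 to 7 (guide, 3 h), 6 to 7 (TCR, sgNC), 4 to 6 (TCR, sgFoxp3) and 5 to 7 (difference). Reversals were confined to small or low-count values. Ecm1 at 0 h was -0.04 in all TPM fits. Izumo1r in stimulated sgNC cells was -0.08 in all TPM fits and, under upper-quartile scaling, 0.06 without a call. In stimulated sgFoxp3 cells Ecm1 was 0.01 under RLE scaling and DESeq2, Swap70 was -0.08 under upper-quartile scaling and -0.22 to -0.23 in TPM, and Klrg1 ranged over -0.90 to 0.43 on leaving out a library, with 0.12 without sgFoxp3 0 h replicate 2 and 0.43 without sgFoxp3 3 h replicate 2. The cause was not tested. The difference between TCR effects called 7457 genes, against 4843 in TPM with no filter. Higher calls made up 54% of calls at 0 h, 49.9% at 3 h, 50% for TCR in sgNC cells and 39.7% for the difference, against 27.9%, 27.4%, 37.3% and 51.5% in TPM. Correlations of same-numbered deviations ran from -0.23 to 0.29, the highest between sgNC and sgFoxp3 cells at 3 h. With 2 libraries per group they do not settle whether replicate numbers pair the libraries. With replicate number as a block, calls were 10319, 10034, 13527, 14111 and 7240, and members called were 6, 7, 7, 5 and 5, as without it. With at least 1 CPM in all libraries, Klrg1 was not tested. Counts of 4 to 24 limit Klrg1.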
